A study of Mus musculus with 2 samples.

Results

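The Krüppel-like factor (Klf), specificity protein (Sp) and early growth response (Egr) genes encode transcription factors with a run of C2H2 zinc fingers at or near the C-terminus. All 30 genes of the family were taken by name: Klf1 to Klf17, Sp1 to Sp9 and Egr1 to Egr4. A peak belonged to a gene when its summit lay inside the gene's RefSeq span on mm10, exon or intron. By that rule 64 of the 38366 peaks in the list were in family members, and each lay in 1 member only. The data are methylated RNA immunoprecipitation sequencing (MeRIP-seq) of uterus from wild-type C57BL/6 mice, in which fragments bound by an antibody to N6-methyladenosine (m6A) are sequenced beside untreated RNA, the input. The m6A immunoprecipitate (IP) was 1 library of whole uterus, labelled as an equal pool of gestation days 4 and 8. The input was 1 library of whole uterus without antibody, for which no gestation day or pooling is labelled. The peak names mention day 8 and not day 4. With 1 library on each side there were no replicates, so values describe these libraries alone and the groups could not be tested against each other. The number of animals is not given in the sources used here.

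Klf and Sp proteins bind GC-rich and CACCC sequences in promoters, and Egr proteins bind a related GC-rich site. Some Klf proteins mainly activate, while others repress by recruiting CtBP or Sin3 corepressors. In the uterus, Klf9 is known as a partner of the progesterone receptor, Klf5 is needed in the epithelium for implantation, and Klf15 is known for restraining epithelial proliferation under progesterone. m6A is written on RNA while it is made, is often found near stop codons and in long exons, and can shorten the life of a transcript. Transcripts of pluripotency factors, such as Klf4, are among its known carriers.

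Of the 30 genes, 21 had at least 1 peak, or 70.0% with an exact Clopper-Pearson 95% interval of 50.6 to 85.3, where 55.7% of all protein-coding genes did. The interval includes the background share. By subgroup, peaks were found in all 4 of Sp1 to Sp4 and all 3 CtBP-binding Klf genes. They were found in 5 of the 6 mainly activating Klf genes (all but Klf1), in 5 of the 6 Sin3-binding Klf genes (all but Klf14), and in Klf15 but not Klf17. Among the Egr genes 2 of 4 had a peak, Egr1 and Egr2 but not Egr3 and Egr4. Of Sp5 to Sp9, only Sp6 had one.

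The 9 genes without a peak were Klf1, which drives globin genes in red cell precursors, Klf14, Klf17, known from oocytes and early embryos, Sp5, a Wnt target of the embryo, Sp7 (osterix), the factor of bone-forming cells, Sp8 and Sp9 of limb bud and forebrain, Egr3 and Egr4. Lack of methylation, lack of transcript and lack of coverage all leave a gene off a peak list and cannot be told apart here. In bulk tissue, fewer cells of a type and less RNA per cell cannot be told apart either. Markers of erythroid cells, trophoblast and early embryo, oocyte and bone were looked up as well. Limb bud and forebrain markers were not looked up. None of 7 markers of trophoblast and early embryo and none of 4 oocyte markers had one. Of 7 erythroid markers, 2 had a peak: Alas2 at 10.9-fold from 57 IP fragments, with a summit in 2 gene spans, and Hba-a1 at 2.73-fold from 49. Of 4 bone markers, Runx2 had 5 peaks, the highest 15.8-fold from 44 IP fragments, and Dmp1 had 1 of 5.47-fold from 7 IP fragments. All 15 markers of uterine stroma, muscle, epithelium and endothelium that were looked up, among them Pgr, Hoxa10 and Acta2, carried peaks (78.2 to 100%). The share was 55.7% over all protein-coding genes and 36.9% over those with spans up to 10 kb. The latter lies inside the intervals of the trophoblast and embryo, oocyte, erythroid (3.67 to 71.0%) and bone (6.76 to 93.2%) markers. Median spans were 6.07 kb for trophoblast and embryo, 6.8 kb for oocyte and 15.25 kb for uterus markers. They were 16.7 kb for erythroid and 14.4 kb for bone markers. Among genes over 10 kb the share was 66.3%, also inside the erythroid and bone intervals. The 55.7% share lay above the interval of the trophoblast and embryo markers (0 to 41.0%) and inside that of the oocyte markers (0 to 60.2%). The part of span in these counts was not tested.

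The genes without a peak were short. Their spans ran from 2.47 kb in Egr4 to 10.4 kb in Sp7. Of the 14 members with a span of up to 10 kb, 6 carried a peak, where 36.9% of all protein-coding genes of that size did. Of the 16 longer members 15 did, all but Sp7, against 66.3% of protein-coding genes over 10 kb. The 10 kb limit was chosen after the values were seen. The most peaks, 6 each, lay in Sp3 and Klf13, with spans of 44.0 and 52.6 kb, and Sp4 held 5 in 69.8 kb and Klf7 4 in 92.9 kb. The longest pair held fewer, 1 in Klf8 (173.6 kb) and 3 in Klf12 (419.7 kb), while among the short members Klf10 held 5 in 9.25 kb.

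**Figure D1:**
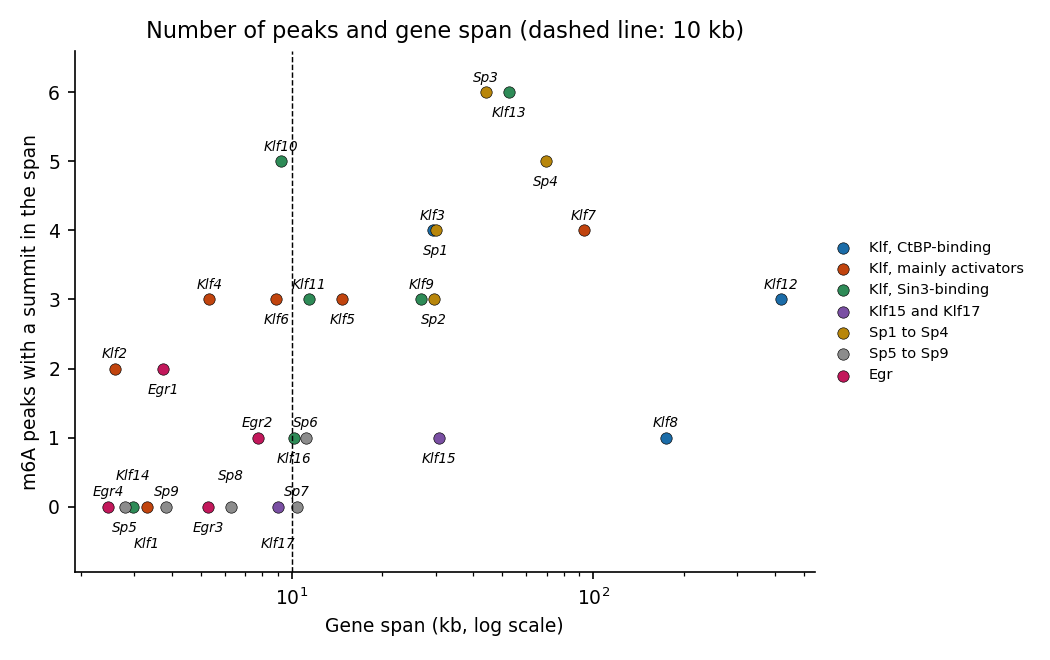
Each point is 1 gene; the x axis is the gene span in kb on a log scale and the y axis the number of m6A peaks with a summit in it, coloured by subgroup. All 9 genes at 0 peaks have spans of 10.4 kb or less, and the highest number, 6, was found in Sp3 and Klf13.

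Each peak below is given with its fold enrichment at the summit from the deposited list, which matched (IP fragments + 1)/(background + 1). With a background of only a few fragments this is lower than the plain ratio of the 2 numbers: for the first Klf2 peak below the fold is 23.8 and the plain ratio 41.7, and for Klf15 they are 22.8 and 34.5. The 95% interval in brackets is the exact Poisson interval of the IP fragment number at a fixed background. It covers counting error of the IP only and leaves out the error of the background, which matters most where background is low. Background is in scaled input fragments. Positions are mm10, counted from 1. Distances from the start or end of a gene refer to the ends of the RefSeq span, with the strand taken from RefSeq promoter windows of GRCm38.p6, the assembly of mm10. These windows matched 22 of the 30 members. They did not include Klf5, Klf10, Klf14, Klf16, Sp6, Sp7, Egr1 or Egr3, for which only lower and upper ends of the span are given.

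Among the activating Klf genes, Klf2, which keeps endothelium quiescent under flow, held the most enriched peak of the family. Klf2 (NCBI Gene 16598, chromosome 8, 72319062 to 72321654) was covered by 2 peaks that together took up 71.4% of its span. The first, 72319024 to 72320200, reached 23.8-fold (17.9 to 31.0) from 53 IP fragments against a background of 1.27, with its summit 401 bases from the start. The second, 72320567 to 72321278, reached 9.99-fold (8.29 to 11.9) from 120 IP fragments over 11.1, with its summit 675 bases from the end. The intervals of the 2 folds did not overlap, and the peak with the lower fold had more IP fragments and the higher −log10 q (74.8 against 62.2).

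Klf6, a widely expressed factor induced by injury (NCBI Gene 23849, chromosome 13, 5861489 to 5870393), had its highest peak at the start as well. That peak, 5861486 to 5861838, reached 13.8-fold (10.2 to 18.3) from 46 IP fragments over 2.41, and its summit lay 165 bases from the start. The other peaks of Klf6 stood at 7.68-fold (6.20 to 9.39) and 3.99-fold (3.10 to 5.05), 3614 and 6048 bases from the start. Enrichment in Klf6 was thus lower at each step away from the start, while background was higher, at 11.1 and 16.1.

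Klf4, an epithelial and endothelial factor and one of the reprogramming factors (NCBI Gene 16600, chromosome 4, 55527137 to 55532475), did not have this order. Its highest peak, 55529756 to 55531103, lay inside the gene, 2022 bases from the start, at 9.23-fold (7.67 to 11.0) from 120 IP fragments. Its other peaks were 5.64-fold (3.997 to 7.75), 421 bases from the start, and 5.94-fold (4.99 to 7.01), 959 bases from the end. The middle peak overlapped the interval of the first and not that of the last, and peaks covered 54.4% of the span.

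Klf5 (NCBI Gene 12224, chromosome 14, 99298691 to 99313412) held peaks at both ends of its span. The peak at the lower end, 99298686 to 99299191, reached 7.46-fold (6.04 to 9.11) with its summit 334 bases inside the span. The peak at the upper end, 99313018 to 99313790, reached 4.54-fold (3.79 to 5.40) and ran 378 bases past the annotated end. Between them lay the most deeply covered summit of the family, with 207 IP fragments against a background of 52.5, which gave only 3.89-fold (3.38 to 4.45). The order by fold and by fragments in Klf5 was thus opposite for these peaks, and the lower-end peak was clear of the other 2 by its interval.

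Klf7, known best from neurons (NCBI Gene 93691, chromosome 1, 64029448 to 64122345), had 4 peaks. The highest, 64078582 to 64079506, lay 46.8% along the span at 8.09-fold (6.54 to 9.90). The one nearest the start stood at 4.76-fold (3.42 to 6.46) and the one nearest the end at 5.65-fold (4.43 to 7.11), and the interval of the latter overlapped that of the highest. The summit of the next, at 7.58-fold (5.20 to 10.7), also lay inside the microRNA gene Mir6899.

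Among the Sin3-binding genes, Klf9 (NCBI Gene 16601, chromosome 19, 23141226 to 23168129) had a peak at the start of its span and others toward the end. The start peak, 23140433 to 23142209, was the widest of the family at 1777 bases and began 793 bases before the annotated start. It reached 10.9-fold (8.82 to 13.2) from 97 IP fragments over 8.03. Toward the end, 23165251 to 23166156 reached 7.19-fold (6.00 to 8.54) and 23164535 to 23165098 reached 4.57-fold (3.81 to 5.44), with summits 2426 and 3296 bases from the end. The last pair had more IP fragments than the start peak, 126 and 125, over higher backgrounds of 16.7 and 26.6.

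Klf13, a close relative of Klf9 (NCBI Gene 50794, chromosome 7, 63886351 to 63938915), showed the same layout with more peaks. Its start peak, 63938009 to 63938897, reached 13.1-fold (9.01 to 18.6) from 30 IP fragments over 1.36, with the summit 101 bases from the start. A further 4 peaks lay within 5153 bases of the end, at 10.6-fold (8.33 to 13.3), 7.37-fold (6.07 to 8.86), 2.98-fold (2.21 to 3.93) and 2.09-fold (1.60 to 2.70). The last of these 4 is the lowest fold in the family, and background there was 27.2. A peak of 4.65-fold between the ends also lay in the long non-coding RNA gene Gm27252. The intervals of the start peak and the 10.6-fold peak overlapped.

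Klf10 and Klf11, which are induced by TGF-beta, differed in where they were enriched. Klf10 (NCBI Gene 21847, chromosome 15, 38291464 to 38300711) held 5 peaks in 9.25 kb, with the highest, 38295499 to 38296281, at 7.04-fold (5.77 to 8.50) from 106 IP fragments over 14.2. Its others, in order of rising coordinate, stood at 3.29-fold (2.45 to 4.33), 2.70-fold (2.07 to 3.46), 4.10-fold (2.88 to 5.68) and 4.38-fold (2.69 to 6.79). The last lay at the upper end of the span and also in Gm35248. Klf11 (NCBI Gene 194655, chromosome 12, 24651371 to 24662782) held 3 peaks. They reached 9.46-fold (6.30 to 13.7), 4.23-fold (3.11 to 5.63) and 11.5-fold (8.79 to 14.7), in order from the start. The outer peaks of Klf11 had overlapping intervals, and the middle one lay below both. Klf16 had a single peak at chromosome 10, 80568601 to 80569115, of 5.48-fold (3.36 to 8.49) from 18 IP fragments.

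The CtBP-binding repressors had the lowest median of the highest fold among the Klf subgroups, 6.62. Klf3 (chromosome 5, 64803521 to 64832901) held 4 peaks. They reached 3.06-fold (2.39 to 3.85), 4.23-fold (3.29 to 5.37), 7.34-fold (5.85 to 9.11) and 6.00-fold (4.86 to 7.33), in order from the start. All 4 lay beyond 63.4% of the span, and the intervals of the last pair overlapped. Klf12 held 3 peaks of 3.17-fold (1.67 to 5.59), 6.62-fold (3.67 to 11.2) and 5.37-fold (2.90 to 9.25), from 10, 12 and 11 IP fragments. In a span of 419.7 kb all of them lay within 34103 bases of the end. Klf8 had 1 peak, chromosome X, 153392634 to 153393090, of 3.46-fold (1.87 to 5.96) from 11 IP fragments, 6124 bases from the end. Folds of these thinly covered peaks of Klf8 and Klf12 have wide intervals, and none of the subgroup reached 10-fold. This depended on the measure: as plain IP fragments over background the highest peak of Klf12 stood at 12.5. Those of Klf3 and Klf8 stood at 7.97 and 4.45.

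Klf15 (NCBI Gene 66277, chromosome 6, 90461043 to 90491803) had a single peak and the second highest fold of the family. The peak, 90466317 to 90467617, reached 22.8-fold (17.6 to 29.0) from 64 IP fragments over 1.85, with its summit 5814 bases from the start. Its interval overlapped that of the first Klf2 peak and that of the next gene in order, Egr2.

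Sp1, the classical GC box factor, and its relatives Sp2, Sp3 and Sp4 each held 3 to 6 peaks. In Sp1 (NCBI Gene 20683, chromosome 15, 102406316 to 102436404) the highest, 102425488 to 102425778, was only 291 bases wide and reached 11.7-fold (8.83 to 15.2) from 54 IP fragments. Its other peaks stood at 7.12-fold (5.99 to 8.40), 7.20-fold (5.57 to 9.16) and 7.48-fold (5.99 to 9.23), with intervals that overlapped each other. The first of these, 1491 bases wide and 2834 bases from the start, had the most IP fragments, 138. In Sp3 (NCBI Gene 20687, chromosome 2, 72936430 to 72980446) the highest of 6, 72940571 to 72940908, reached 10.5-fold (8.74 to 12.6) from 120 IP fragments, 4310 bases from the end. It was clear by its interval of the next with a summit in the span, at 7.16-fold (5.83 to 8.70). The other 4 ran from 3.96-fold to 4.65-fold, and 1 of them also lay in the antisense-named gene Sp3os.

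Sp4 (NCBI Gene 20688, chromosome 12, 118231686 to 118301440) held 5 peaks spread from 2093 bases after the start to 1050 bases before the end. Their folds were 11.9 (7.63 to 17.7), 9.05 (6.41 to 12.4), 8.06 (5.18 to 12.0), 6.96 (3.67 to 12.3) and 7.47 (5.55 to 9.86), in order of rising coordinate, which is from the end toward the start. All these intervals overlapped, so no peak of Sp4 was clear of the others by its interval. Sp2 held 3 peaks of 9.67-fold (6.28 to 14.3), 7.42-fold (5.44 to 9.91) and 8.06-fold (5.18 to 12.0), all inside the long non-coding RNA gene D030028A08Rik as well. The single Sp6 peak, 5.48-fold (3.36 to 8.49) from 18 IP fragments, also lay in Gm11532. Since the list has no strand, the peaks of Sp2 and Sp6 could not be assigned to one gene.

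Of the Egr genes, Egr1 (NCBI Gene 13653, chromosome 18, 34861207 to 34864956) held 2 peaks that covered 54.6% of its span. The peak at the lower end, 34861200 to 34861768, reached 13.6-fold (9.40 to 19.2) from 31 IP fragments over 1.35. The wider one, 34862390 to 34863873, reached 10.9-fold (8.47 to 13.9) from 64 IP fragments over 4.94. These intervals overlapped. Egr2, best known from hindbrain and Schwann cells (NCBI Gene 13654, chromosome 10, 67534469 to 67542188), held 1 peak of 1544 bases, 67540017 to 67541560. It reached 13.8-fold (9.78 to 19.0) from 36 IP fragments over 1.68, 1399 bases from the end. The highest peaks of Egr1 and Egr2 thus could not be told apart by fold.

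**Figure D2:**
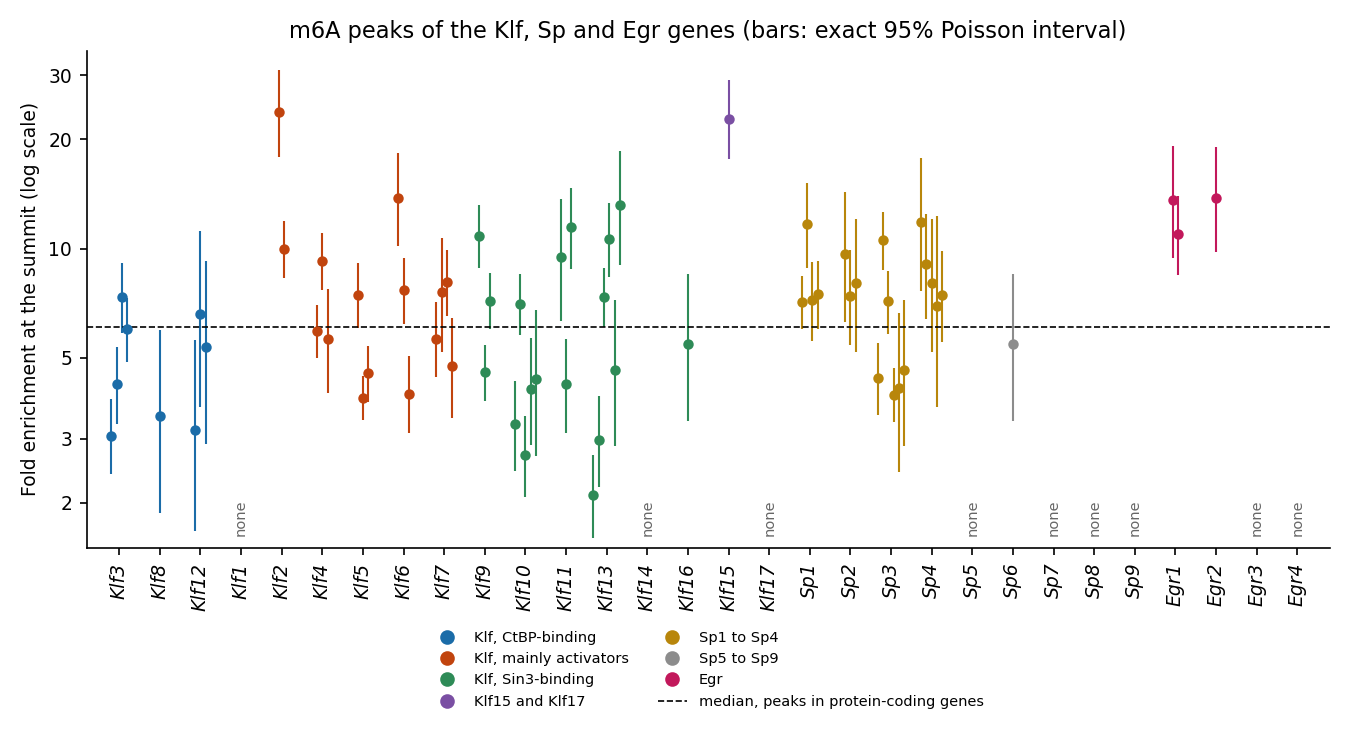
Fold enrichment at the summit on a log scale (y axis) of every peak in each of the 30 genes (x axis), grouped and coloured by subgroup; peaks of a gene are in order of coordinate, bars are exact 95% Poisson intervals and the dashed line is the median of all peaks in protein-coding genes, 6.09. The first Klf2 peak (23.8-fold) and the Klf15 peak (22.8-fold) stand highest, and 9 genes have none.

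Ordered by their highest peak, the members ran from Klf2 and Klf15 through Egr2 (13.8-fold), Klf6 (13.8-fold), Egr1 (13.6-fold) and Klf13 (13.1-fold) down to Klf16 and Sp6 (5.48-fold each) and Klf8 (3.46-fold). The intervals overlapped for all 20 pairs of neighbours in that order, and intervals without overlap were found only between members farther apart in it. Overlap of intervals does not show that the folds of neighbours are equal. With the peak of highest −log10 q taken for each member, Klf15 came first at 22.8-fold and Klf2 stood at 9.99-fold. Among the 16 members with 2 or more peaks, the interval of the highest was clear of all the others in 5: Klf2, Klf5, Klf6, Klf9 and Sp3. That count is of peaks with a summit in the span. It leaves out the error of the background, which was only 1.27 at the highest Klf2 peak and 2.41 at that of Klf6.

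The place of the highest peak was compared with that in other genes. The strand was known for 16 of the 21 members with a peak. In 4 of these (25%), Klf2, Klf6, Klf9 and Klf13, the highest summit lay within 1000 bases of the start, where 17.1% of all peak-carrying protein-coding genes had theirs; with so few members this is close to the background share. In none of the 16 did it lie within 1000 bases of the end, where 20.6% of protein-coding genes had it, and in Sp4 it lay 1050 bases from the end. Counting either end for all 21, with Klf5 and Egr1 added, gave 6, against 36.3% of protein-coding genes. With the highest peak chosen by −log10 q in place of fold, only Klf9 of the 16 kept a start-proximal summit, against 11.0% of protein-coding genes. By that choice the highest summit of Klf2 lay 675 bases from the end, so the lack of end-proximal summits depended on the choice by fold. Background moved with this position. In the 6 member peaks within 1000 bases of the start, background had a median of 2.75 and IP fragments a median of 41. In the other 46 member peaks with known strand these medians were 8.95 and 62. Over protein-coding genes the medians of background were 1.78 near the start and 4.32 elsewhere. The part of the background in the high folds at the start was not tested. Over all 52 member peaks with known strand, 21 lay in the last 20% of the span (40.4%) and 12 in the first 20% (23.1%), beside 42.1% and 18.3% of peaks in protein-coding genes.

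The RefSeq sequences of these 4 genes are given to show how the start-proximal peaks begin. They run from 100 bases before the annotated start to 30 after it, 5′ to 3′ on the strand of the gene, with the bases inside the peak in capitals.
Klf2, chr8:72318962-72319091, plus strand: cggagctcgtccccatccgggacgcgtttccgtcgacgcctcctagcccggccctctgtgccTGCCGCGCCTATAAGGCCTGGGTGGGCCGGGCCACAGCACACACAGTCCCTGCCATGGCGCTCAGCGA
Klf6, chr13:5861389-5861518, plus strand: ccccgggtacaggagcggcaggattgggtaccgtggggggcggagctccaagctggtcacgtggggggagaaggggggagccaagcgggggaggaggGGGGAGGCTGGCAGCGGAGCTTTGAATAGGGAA
Klf13, chr7:63938886-63939015, minus strand: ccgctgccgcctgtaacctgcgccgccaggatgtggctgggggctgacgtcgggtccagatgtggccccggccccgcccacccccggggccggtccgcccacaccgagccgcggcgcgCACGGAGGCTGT
Klf9, chr19:23141126-23141255, plus strand: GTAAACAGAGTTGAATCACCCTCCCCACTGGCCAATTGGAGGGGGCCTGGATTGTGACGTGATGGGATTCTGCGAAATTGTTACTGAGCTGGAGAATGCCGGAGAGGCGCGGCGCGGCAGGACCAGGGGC
The Klf6 peak began 3 bases before the annotated start, the Klf2 peak 38 bases before it and the Klf13 peak 18 bases after it. The Klf9 peak instead covered the whole stretch. Of the 4, only Klf9 holds GGAC, the core of the usual m6A consensus, in the 30 bases after the start, with its first letter at base 20. Peaks also reached a listed transcript start inside the spans of Klf7 (4.76-fold) and Sp3 (4.14-fold), 56 and 16 bases before that start.

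The same windows were searched for the letters that the family's own proteins bind, from 250 bases before to 50 after each listed start, on both strands. GGGCGG, the GC box, was in 20 of the 32 windows of members (62.5%), beside 35.7% of all 32851 windows. CACCC was in 26 of 32 (81.3%), beside 57.5% of all. GGAC, searched in the same way, was also in 26 of 32, beside 87.7% of all. On the strand of the gene alone it was in 65.6% of all windows. Since both strands were searched and most of each window lies before the start, the GGAC count does not describe m6A sites in RNA. Windows of a gene can overlap, the 32 windows belong to 22 genes, and a match of letters is a description and not a bound site.

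**Figure D3:**
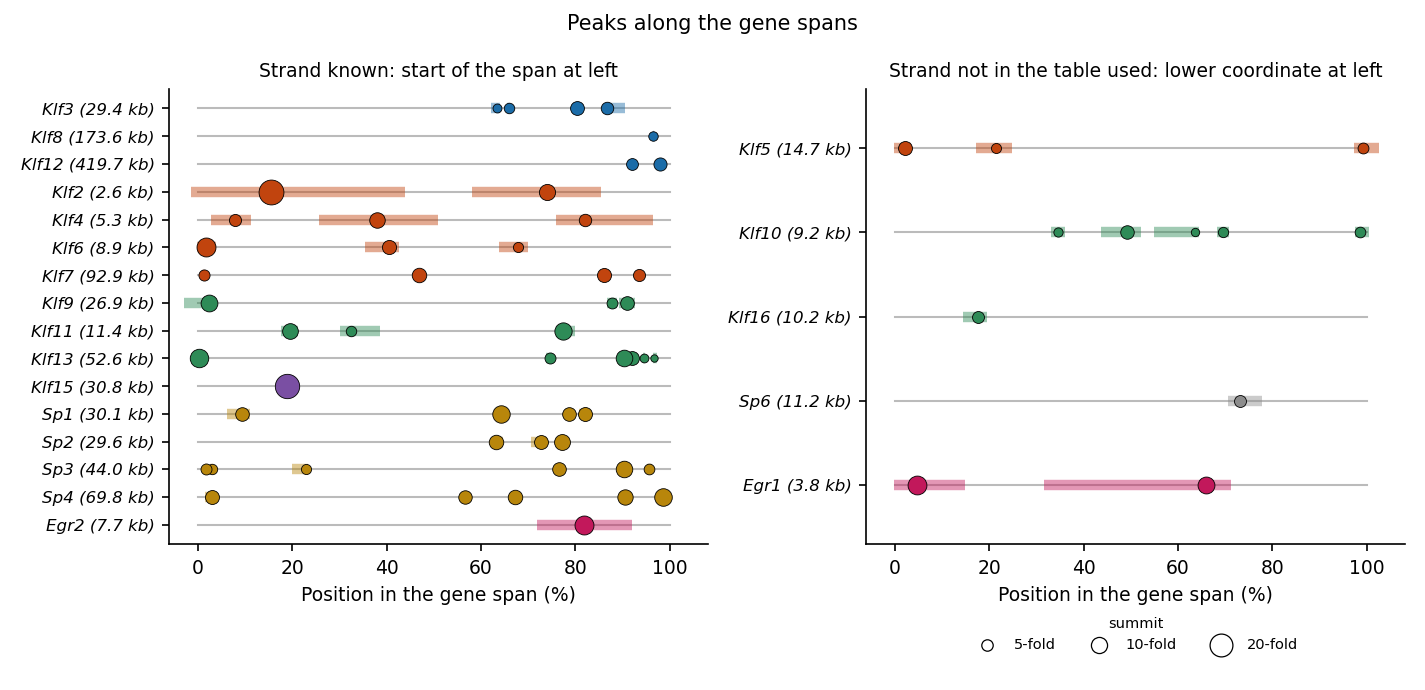
Peaks (bars) and summits (circles, area by fold) along the gene span in percent (x axis) for each member with a peak (y axis, span in kb). At left the start of the gene is at 0; at right are the 5 members without a strand in the table used, with the lower coordinate at 0. The highest summits of Klf2, Klf6, Klf9 and Klf13 lie near the start, and all summits of Klf12 and Klf8 near the end.

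Compared with all peak-carrying protein-coding genes, the members had higher folds by their highest peak and deeper summits. The median of the highest fold was 10.5 in the 21 members (quartiles 7.34 and 13.1) and 8.04 in 12134 protein-coding genes (quartiles 5.85 and 10.9). This difference depended on the measure. With the peak of highest −log10 q taken for each gene the medians were 7.47 and 7.44, and as plain IP fragments over background they were 12.5 and 12.0. A peak of at least 10-fold was found in 11 of the 30 members, against 17.5% of protein-coding genes. Member summits had a median of 56 IP fragments against a background of 7.47, beside 32 over 3.95 for all peaks in protein-coding genes. IP fragments and background were thus both higher at member summits.

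The members also had more and wider peaks. Of the 21, 14 had at least 3, against 40.5% of peak-carrying protein-coding genes. The median width was 553 bases beside 342, and 13 of 64 peaks (20.3%) in 12 genes were 1000 bases or wider, against 10.9% of peaks in protein-coding genes. Depth moved with width. The wide member peaks had a median of 94 IP fragments and the narrower ones 46, and in all protein-coding genes these medians were 67 and 29. The part of depth in the number and width of member peaks was not tested.

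**Figure D4:**
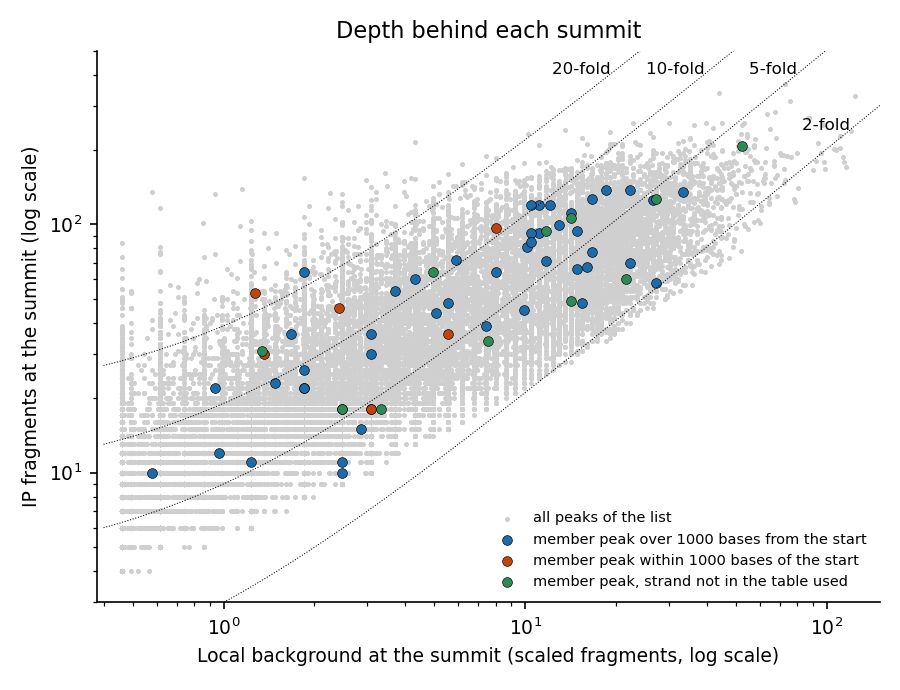
IP fragments (y axis) against local background (x axis) at each summit, both on log scales, for all 38366 peaks (grey) and the 64 member peaks (coloured by position); dotted lines mark equal fold enrichment. Klf2 and Klf15 lie near the 20-fold line at low background, and the point farthest right among the members is the Klf5 summit with 207 IP fragments.

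Partners of these factors were looked up as a list of 30 genes for corepressors, coactivators, the kinases and factors that induce Egr and Klf genes, and ubiquitin ligases that degrade Klf proteins. Of these, 25 had a peak, or 83.3% with a 95% interval of 65.3 to 94.4, where 55.7% of all protein-coding genes did and 66.3% of those over 10 kb. The latter share lies inside the interval, and the partners were long: their median span was 51.7 kb, beside 17.2 kb for all protein-coding genes. The highest were Mapk7, the kinase ERK5 that induces Klf2, at 17.7-fold (14.1 to 21.9), and Srf, the serum response factor that induces Egr1, at 16.5-fold (12.2 to 21.9). Mef2c, a substrate of ERK5, followed at 16.4-fold (12.7 to 20.8). These 3 intervals overlapped. The median of the highest fold over the 25 was 9.37. No peak was listed for Hdac1, Wwp1, Mapk3, Mef2d and Med23. The Egr corepressors Nab1 and Nab2 reached 12.0-fold and 7.94-fold, the Sin3 genes Sin3a and Sin3b 5.72-fold and 6.12-fold, and the CtBP genes Ctbp1 and Ctbp2 2.74-fold and 5.89-fold. Nab1, Nab2 and these corepressor genes were chosen for mention after their values were seen.

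A peak within 5 kb of a member but with its summit outside the span was found for 5 genes. The closest lay 114 bases before the start of Sp3, inside Sp3os, at 8.32-fold (5.80 to 11.6), and 519 of its bases overlapped the Sp3 span. Its interval overlapped that of the highest Sp3 peak, 8.74 to 12.6, so Sp3 was clear only among summits inside the span. The one nearest to Klf1, a gene without a peak of its own, lay 2066 bases away in Gm39213, at 10.5-fold (6.27 to 16.7) from 16 IP fragments.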

How the data were processed

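RNA of whole uterus was extracted with TRIzol and made into strand-keeping libraries, per the labels' protocols. HISAT2 2.2.1, MACS3 3.0.0a7 and mm10 are named in the submitters' processing notes; their settings, the treatment of duplicates and the library sizes were not given in the sources used here. In the deposited list there are 38366 peaks of the m6A library over the input. Its fold, a ratio as written by the authors' caller, its −log10 p-value and its −log10 q-value (lowest 1.32) belong to each peak and are used only within this list. The deposited display score equals 10 times −log10 q in whole numbers for 99.98% of peaks and was not used.

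IP fragments and background were recovered from the fold, read as (fragments + 1)/(background + 1), and the Poisson p, within 0.001 on the −log10 scale at 100% of peaks; the step was tested on simulated data. Gene spans were those of RefSeq for GRCm38.p6 (49632 genes on assembled chromosomes, 365 rows left out). Strand came from RefSeq promoter windows, present for 80.3% of protein-coding genes. No genome, exons or protein sequences were used, so transcript regions and zinc finger stretches, which were planned, are not reported.

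The members and lists were chosen with earlier results of these data known. All members are named with their peak count; folds are given for each peak of members with up to 5 peaks and by the highest peak and the range otherwise. Of the partner list the highest 3 and those lacking a peak are named, and the Nab, Sin3 and CtBP genes were added after their values were seen. Computation used scipy 1.17.1, pandas 2.3.3 and numpy 2.4.6 under Python 3.11.15, and figures were drawn with matplotlib 3.10.9.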

Additional observations from a re-analysis of the deposited data

How the results depend on the processing

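No paired analysis was possible because each side was 1 library. The 21 members with a peak became 20 with a −log10 q of at least 5 or a fold of at least 4 (Klf8 lost). Over all protein-coding genes the share of 55.7% became 53.1% and 51.5% under these rules. Without summits in 2 or more genes 19 members were left (Sp2 and Sp6 lost, which left 0 of Sp5 to Sp9), against 51.1%. Overlap rules of 1 base or 50% of the peak kept 21, against 56.1% and 55.6%. As IP fragments over background, Klf2 stayed highest at 41.7, and the highest fold of 9 of 21 members moved out of its interval. With the peak of highest −log10 q, 6 of 21 did, among them Klf2 at 9.99-fold, and Klf15 was highest at 22.8-fold. Highest summits near either end (6 of 21) were 3 within 250 bases, 9 within 2000 and 2 by −log10 q. Over peak-carrying protein-coding genes the share of 36.3% became 14.8%, 51.1% and 34.5% in that order. Highest summits near the start (4 of 16) were 2 within 250 bases, 4 within 2000 and 1 by −log10 q. Here the share over protein-coding genes, 17.1%, became 8.37%, 23.2% and 11.0%. These settings for the start were chosen after seeing the data. The plain ratio differs from the fold by definition, in leaving out the added 1. The cause of the other moves was not tested. The partner count of 25 fell to 23 at 4-fold or more, where 51.5% of all protein-coding genes kept a peak. Every peak of Klf8 and Klf12 had only 10 to 12 IP fragments, which limits what can be said of those members. In Sp4 only 1 of the 5 peaks was as thin, with 10, and the highest had 22.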
